A study of Mus musculus with 9 samples.

Results

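The transcripts of 9 genes of the Indian hedgehog and parathyroid hormone-related protein (PTHrP) circuit were followed through 9 RNA-seq libraries of primary mouse articular chondrocytes. The genes were chosen by symbol. They are Ihh and Pthlh, which encode the ligands Indian hedgehog and PTHrP, Pth1r and Ptch1, which encode their receptors, Smo, the Hedgehog signal transducer, the transcription factor genes Gli1, Gli2 and Gli3, and Hhip, which encodes a ligand-binding inhibitor. All 9 of 9 matched one Ensembl identifier each among the 55471 rows of the gene tables, and 7 of the 9 had enough counts to be tested.

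Chondrocytes came from the knee cartilage, femoral and tibial, of wild-type pups at postnatal day 5. The cultures formed 3 groups of 3, namely Control, Ad-OSCAR and Ad-OSCAR + 5-ASA. Ad-OSCAR is an adenovirus that carries the collagen receptor gene Oscar, Control is its control adenovirus by the study's methods, and 5-ASA is 5-aminosalicylic acid, an anti-inflammatory drug of the bowel. The methods place every culture on plates coated with a collagen-II peptide, with no interleukin-1β added, and give 10 µM 5-ASA. The labels give an infection of 2 h at 400 MOI after 3 days of culture and 36 h before 5-ASA was added, whereas the methods give 800 MOI after 2 days and 24 h with or without 5-ASA. There was no drug-treated group without Ad-OSCAR, and the vector overexpresses Oscar far above its Control level, so the effect of 5-ASA is seen only on that background. The study's general statement is that n counts biologically independent samples, but the labels do not say which animals the 3 cultures of a group came from, so the p-values measure the spread between these cultures, which may be technical.

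In the growth plate, Indian hedgehog is made by chondrocytes that are leaving proliferation, and it drives PTHrP production nearer the joint surface. PTHrP acts through PTH1R, a G protein-coupled receptor that raises cyclic AMP, and holds chondrocytes short of hypertrophy. On a Hedgehog-receiving cell the ligand lifts the block that PTCH1 places on SMO, after which GLI factors reach the nucleus. GLI2 serves mainly as an activator and GLI3 mainly as a repressor. Gli1, Ptch1 and Hhip are themselves direct targets that are commonly read as a measure of the pathway.

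Libraries held 19733448 to 28192740 estimated counts. Oscar had 3 to 4 counts in Control, 173445 to 187278 in Ad-OSCAR and 80766 to 94199 in Ad-OSCAR + 5-ASA, so each library matched its label as to the Oscar vector, and Oscar itself was lower with 5-ASA. All 14 of 14 chondrocyte markers on the list were above 3 counts, and 13 of them fell in Ad-OSCAR, where 32.2% of all genes tested fell. Of the 13, Matn3 had 4 to 10 counts in Ad-OSCAR and Snorc 1 to 5. Both had enough counts to be tested through the Control cultures, where they are high. The summed level of the 14 was 43571 to 49504 CPM (read counts scaled to library size by TMM) in Control, 3261 to 3661 CPM in Ad-OSCAR and 4135 to 4608 CPM with 5-ASA. All 8 of 8 fibroblast markers were also above 3 counts, at a summed 17829 to 18953, 10451 to 11419 and 13005 to 14379 CPM in the same order. Of the 7 tested, 6 fell in Ad-OSCAR, but Col3a1 rose from 4253 to 7009 CPM (log2 fold change 0.72, edgeR adjusted p = 1.06e-11). With 5-ASA Col3a1 was at 8637 CPM. Of 8 leukocyte markers 3 were above 3 counts, C1qa and C1qb were at 0 in every library, and Ptprc, Adgre1 and Itgam never passed 3 counts. The summed level of the 8 was 5.59 to 7.61 CPM in Control, at least 13.1 CPM in Ad-OSCAR and 11.7 to 11.9 CPM with 5-ASA. Cd68 rose from 1.99 to 8.21 CPM in Ad-OSCAR (adjusted p = 7.77e-10) and Lyz2 from 3.55 to 4.77 CPM (adjusted p = 0.0122). Csf1r, the other marker above 3 counts, went from 0.77 to 0.548 CPM and did not pass (log2 fold change −0.47, edgeR adjusted p = 0.233). Of 6 endothelial markers, Cdh5 and Emcn never passed 3 counts, and the sum was 0.581 to 1.23, 4.51 to 5.53 and 2.23 to 2.73 CPM in the 3 groups, with Vwf at 3 to 11 counts in Control and 58 to 82 in Ad-OSCAR. Of 6 osteoclast markers, Dcstamp was at 0, and the sum was 17.7 to 18.7 CPM in Control and 18.4 to 18.8 CPM in Ad-OSCAR, while Atp6v0d2 had 0 to 1 counts in Control and 40 to 54 in Ad-OSCAR. The 8 osteoblast markers summed to 34.1 to 40.7 CPM in Control, 5.38 to 8.16 in Ad-OSCAR and 13.2 to 14.5 with 5-ASA. Of the 3 tested, 2 fell in Ad-OSCAR and 1 did not pass. Apart from the osteoclast sum and Csf1r, these levels moved with the groups that are compared below, and their part in the results was not tested. RNA was taken from whole cultures, so fewer cells of a type and less RNA per cell cannot be told apart.

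Stretches of genomic sequence just before the RefSeq start were taken for 4 members (RefSeq table, GRCm38.p6) and are shown 5′ to 3′ on the gene's own strand. Pthlh and Pth1r are shown because they changed most, Hhip because it alone held a cyclic AMP response element, and Ptch1 as the abundant Hedgehog target. Capitals mark the motifs found. GGGCGG or its complement CCGCCC is the GC box, and TGACGTCA is the full cyclic AMP response element.
Hhip, chr8:80058009-80058258, minus strand: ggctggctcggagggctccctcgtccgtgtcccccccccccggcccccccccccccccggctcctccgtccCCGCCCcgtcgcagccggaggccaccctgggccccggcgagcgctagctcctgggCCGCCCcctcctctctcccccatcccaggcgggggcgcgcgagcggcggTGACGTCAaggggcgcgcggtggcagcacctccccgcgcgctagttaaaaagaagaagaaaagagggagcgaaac
Ptch1, chr13:63565736-63565985, minus strand: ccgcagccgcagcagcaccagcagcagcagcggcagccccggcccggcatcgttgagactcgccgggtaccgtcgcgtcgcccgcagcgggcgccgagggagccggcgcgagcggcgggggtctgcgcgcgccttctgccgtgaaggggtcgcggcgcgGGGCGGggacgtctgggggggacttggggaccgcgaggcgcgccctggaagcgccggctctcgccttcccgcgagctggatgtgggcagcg
Pth1r, chr9:110747146-110747395, minus strand: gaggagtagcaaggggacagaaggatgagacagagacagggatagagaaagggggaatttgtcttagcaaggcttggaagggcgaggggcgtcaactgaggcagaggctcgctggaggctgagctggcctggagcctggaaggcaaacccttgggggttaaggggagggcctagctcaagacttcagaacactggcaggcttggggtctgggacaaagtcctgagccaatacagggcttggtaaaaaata
Pthlh, chr6:147264184-147264263, minus strand: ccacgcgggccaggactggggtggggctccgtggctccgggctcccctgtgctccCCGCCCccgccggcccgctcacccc
The Pthlh stretch is 80 bases long because the 170 bases that follow lie in a first exon of the GENCODE M21 annotation.

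The table held windows of 250 bases before the start for 8 of the 9 members, 10 windows in all, since Pth1r has 3 starts. Both strands were searched for each motif. The GC box stood in 8 of these 10 windows, against 32.7% of all 32851 windows in the table. The Pth1r stretch shown lies before the most upstream start of that gene and held no motif. The other Pth1r windows held 1 and 4 GC boxes. The cyclic AMP response element TGACGTCA stood in the Hhip window alone, 75 bases before the start, against 1.55% of all windows. The GLI motif TGGGTGGTC, the AP-1 motif TGAGTCA and the TATA motif TATAAA were in none of the 10, against 0.225%, 4.46% and 12.4% of all windows. These letters are a description of the windows and not a measurement of binding.

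The genes for PTHrP and its receptor had the largest estimated changes of the 7 members tested between Ad-OSCAR and Control. Pthlh, which encodes PTHrP (chr6:147252101-147264183, minus strand, GRCm38), had 2, 3 and 0 counts in the Control cultures. It had 60, 46 and 37 counts in Ad-OSCAR and 37, 31 and 36 counts in Ad-OSCAR + 5-ASA. Every Ad-OSCAR culture was above every Control culture, while the Ad-OSCAR and Ad-OSCAR + 5-ASA ranges met. Pooled over 3 cultures, 143 Ad-OSCAR counts against 5 Control counts gave a ratio of 22.7, with an exact 95% interval of 9.49 to 70.8 that covers counting error only. The edgeR quasi-likelihood test gave a log2 fold change of 4.42 ± 0.45 (SE, n = 3 per group, adjusted p = 8.27e-08). Pthlh passed the filter on low counts only through the Ad-OSCAR and Ad-OSCAR + 5-ASA cultures, so it could be tested only because it differed.

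Pth1r encodes the PTHrP receptor (chr9:110722085-110747145, minus strand) and moved the other way. It had 327, 326 and 268 counts in Control, which is 15.4, 13.4 and 14.2 CPM. The Ad-OSCAR cultures stood at 2.58, 2.99 and 3.49 CPM and the Ad-OSCAR + 5-ASA cultures at 2.77, 3.36 and 3.72 CPM. All 6 Oscar-carrying cultures were therefore far below the Control cultures, and the 5-ASA and Ad-OSCAR ranges overlapped. Pth1r fell by 2.25 ± 0.12 on the log2 scale in Ad-OSCAR (SE, n = 3 per group, edgeR adjusted p = 1.56e-11), a 4.74-fold difference. Myl3, which overlaps Pth1r on the opposite strand, had 0 to 2 counts a library.

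All 7 of the 7 members that could be tested passed an adjusted p of 0.05 between Ad-OSCAR and Control, 4 higher and 3 lower. In that comparison 65.0% of the 15362 genes tested passed, 32.7% higher and 32.2% lower, so passing alone says little about these members. The groups also failed to overlap for all 7, as they did for 69.0% of genes. The study's criterion for OSCAR-responsive genes adds an absolute log2 fold change over 1.5. It kept Pthlh, Hhip and Pth1r, 3 of 7 members, against 9.96% of the genes tested, and Pthlh and Hhip were tested only because they differed.

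**Figure D1:**
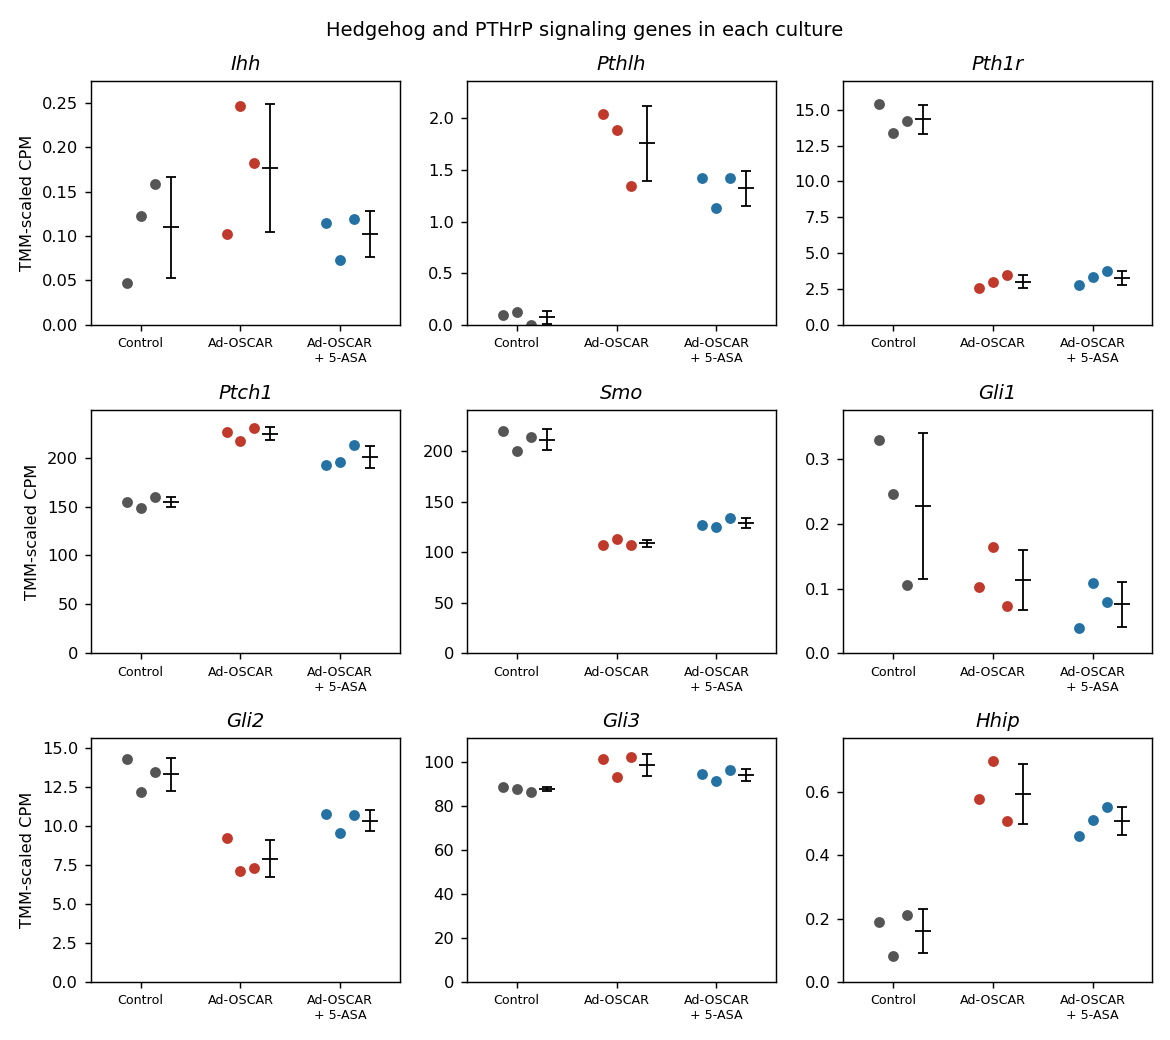
TMM-scaled CPM of the 9 genes (vertical axes from 0, 1 panel a gene) in each of the 9 cultures, 3 per group. Points are cultures and bars the mean ± SD. Pth1r and Smo sit lower in all 6 Oscar-carrying cultures than in Control, Pthlh, Hhip and Ptch1 higher, and Ihh and Gli1 stay under 0.4 CPM throughout.

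Ihh, the ligand gene at the head of the loop (chr1:74945315-74951672, minus strand), was at the edge of detection. It had 1, 3 and 3 counts in Control, 3, 6 and 5 in Ad-OSCAR and 3, 2 and 3 in Ad-OSCAR + 5-ASA. The 3 ranges overlapped, and no culture reached the 0.394 CPM that the filter asked for. Pooled counts of 14 against 7 gave an Ad-OSCAR to Control ratio of 1.58 (exact 95% interval 0.598 to 4.64). A difference within that interval was not detectable at this depth. Of the other ligands, Shh was at 0 counts in all 9 libraries. Dhh, the desert hedgehog gene, had 2 to 4 counts in Control and 10 to 14 in Ad-OSCAR, and its log2 fold change was 1.71 ± 0.44 (SE, edgeR adjusted p = 0.00221). Like Pthlh, Dhh could be tested only through the Oscar-carrying cultures.

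Ptch1 encodes the Hedgehog receptor and is itself a pathway target (chr13:63508328-63573598, minus strand). Its level was 155, 149 and 160 CPM in Control, 226, 217 and 230 CPM in Ad-OSCAR and 192, 196 and 213 CPM in Ad-OSCAR + 5-ASA. The 3 groups did not overlap, with Control lowest and Ad-OSCAR highest. Ptch1 rose by 0.54 ± 0.05 on the log2 scale in Ad-OSCAR (SE, n = 3 per group, adjusted p = 2.06e-08), which is 44.9% more. Its counts ran from 3019 to 6662 a library.

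Smo (chr6:29735503-29761365, plus strand) was 220, 200 and 214 CPM in Control, 107, 113 and 107 CPM in Ad-OSCAR and 127, 125 and 134 CPM in Ad-OSCAR + 5-ASA. Again the groups did not overlap, but the order was the reverse of that for Ptch1. Smo fell by 0.96 ± 0.05 on the log2 scale in Ad-OSCAR (SE, n = 3 per group, adjusted p = 7.02e-12), or by 48.5%. A processed pseudogene inside the locus, Gm13717, took 1 to 8 counts, against the 2767 to 4868 counts of Smo. Reads of the pseudogene counted under Smo would not show in those 1 to 8 counts.

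The receptor and the transducer moved in opposite directions, and their ratio within a culture was taken as a description of that, chosen after their values were seen. There were 0.732 ± 0.0234 Ptch1 counts per Smo count in Control (SD, n = 3), 2.06 ± 0.131 in Ad-OSCAR and 1.55 ± 0.0379 in Ad-OSCAR + 5-ASA. The ranges were 0.705 to 0.747, 1.91 to 2.15 and 1.51 to 1.58. No group overlapped another. With 3 cultures a group an exact permutation test cannot go below 0.10, so none was run.

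**Figure D2:**
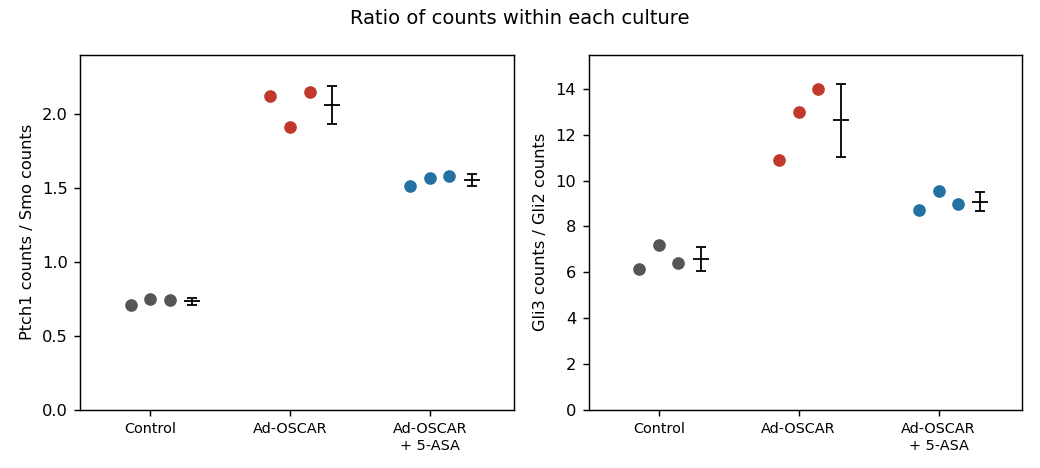
Counts of Ptch1 per count of Smo (left) and of Gli3 per count of Gli2 (right) in each culture, 3 per group, on axes from 0. Points are cultures and bars the mean ± SD. Both ratios are lowest in Control, highest in Ad-OSCAR and between them with 5-ASA, and no group overlaps another.

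The 3 GLI genes differed in level and in direction. Gli1 (chr10:127329882-127341974, minus strand), whose transcription depends on the pathway, had 7, 6 and 2 counts in Control, 3, 4 and 2 in Ad-OSCAR and 1, 3 and 2 in Ad-OSCAR + 5-ASA. The ranges overlapped. Pooled counts of 9 against 15 gave an Ad-OSCAR to Control ratio of 0.475 (exact 95% interval 0.183 to 1.16), and those of 6 against 15 gave 0.328 for Ad-OSCAR + 5-ASA (0.104 to 0.893, counting error only). Gli1 stayed under the filter and was not tested, so neither a fall nor a rise of it can be called. Ptch1 and Gli1 are both Hedgehog targets, yet Ptch1 was at 36.43 to 58.28 TPM over the 9 cultures and Gli1 at 0.02 to 0.14 TPM.

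Gli2 (chr1:118834132-119053619, minus strand) was 14.3, 12.2 and 13.5 CPM in Control, 9.26, 7.13 and 7.31 CPM in Ad-OSCAR and 10.8, 9.56 and 10.7 CPM in Ad-OSCAR + 5-ASA. The Ad-OSCAR cultures were lowest and no group overlapped another. Gli2 fell by 0.74 ± 0.11 on the log2 scale in Ad-OSCAR (SE, n = 3 per group, adjusted p = 6.09e-06). Gli3 (chr13:15463235-15730026, plus strand) was 88.4, 87.5 and 86.4 CPM in Control, 101, 92.9 and 102 CPM in Ad-OSCAR and 94.6, 91.2 and 96.4 CPM in Ad-OSCAR + 5-ASA. It rose in Ad-OSCAR by 0.18 ± 0.05 on the log2 scale (SE, n = 3 per group, adjusted p = 0.00397), only 13.0% above Control. Gm6556, which overlaps Gli3 on the opposite strand, had 19 to 27 counts against 1634 to 2985 for Gli3.

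There were 6.59 ± 0.537 Gli3 counts per Gli2 count in Control, 12.6 ± 1.58 in Ad-OSCAR and 9.09 ± 0.417 in Ad-OSCAR + 5-ASA (SD, n = 3). Every Oscar-carrying culture had more Gli3 per Gli2 than every Control culture. Per transcript length, Gli3 made 82.1 to 84.9% of the summed TPM of the 3 GLI genes in Control, 89.6 to 90.3% in Ad-OSCAR and 84.0 to 87.7% with 5-ASA.

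Hhip (chr8:79965851-80058006, minus strand), the secreted and membrane-bound sink for Hedgehog ligands, was scarce but separated the groups. It had 4, 2 and 4 counts in Control, 17, 17 and 14 in Ad-OSCAR and 12, 14 and 14 in Ad-OSCAR + 5-ASA. Every Oscar-carrying culture was above every Control culture. Pooled counts of 48 against 10 gave a ratio of 3.8 (exact 95% interval 1.9 to 8.43), and edgeR gave a log2 fold change of 1.89 ± 0.43 (SE, adjusted p = 0.000834). No Control culture reached the filter, so Hhip too was tested only through the groups where it is high. In TPM, which divides by a length that RSEM re-estimates in each culture, Hhip was 0.02 to 0.09 in Control and 0.1 to 0.13 in Ad-OSCAR. The estimated length ran from 3959 to 8884 bases among the Control cultures. A limma test on log2(TPM + 0.1) gave 0.41, with adjusted p = 0.228, so the call was lost on that scale.

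**Figure D3:**
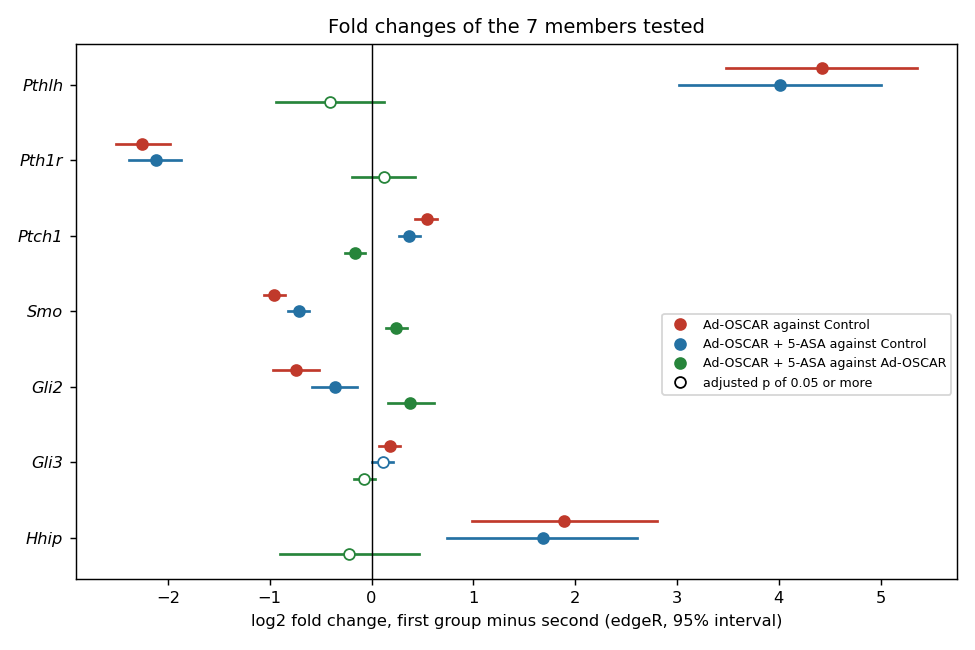
Log2 fold change (horizontal axis, edgeR, first group minus second) with 95% intervals for the 7 genes tested in the 3 comparisons. Open points did not pass an adjusted p of 0.05. Pthlh and Hhip lie to the right and Pth1r, Smo and Gli2 to the left of 0 against Control, and 4 of the 7 points for 5-ASA against Ad-OSCAR are open.

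The comparison of Ad-OSCAR + 5-ASA with Ad-OSCAR asks what the drug changed in cells that overexpress the receptor. Of the 7 members tested, Smo and Gli2 rose and Ptch1 fell. In this comparison 17.8% of all genes passed, 10.4% higher and 7.38% lower. Smo rose by 0.24 ± 0.05 on the log2 scale (SE, adjusted p = 0.00213), that is by 18.4%, and Gli2 rose by 0.38 ± 0.11 (adjusted p = 0.0166). Ptch1 fell by 0.16 ± 0.05 (adjusted p = 0.0255). All 3 differences were higher or lower in 3 of 3 cultures, and each carried the gene part of the way towards its Control level. The comparison shares its Ad-OSCAR cultures with that against Control, so this return is not independent of the first change. The groups did not overlap for these 3 genes, nor did they for 33.8% of all genes tested.

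The other 4 members did not pass. The log2 difference was −0.41 for Pthlh (95% interval −0.94 to 0.12, adjusted p = 0.303) and 0.12 for Pth1r (−0.19 to 0.43, adjusted p = 0.64). It was −0.07 for Gli3 (−0.17 to 0.03, adjusted p = 0.349) and −0.22 for Hhip (−0.9 to 0.47, adjusted p = 0.713). For Pth1r the upper bound of 0.43 stands beside the log2 fold change of −2.25 that separated Ad-OSCAR from Control. For Pthlh and Hhip the intervals are wide because the counts are low. Ihh and Gli1 had pooled ratios of 0.591 (exact 95% interval 0.215 to 1.51) and 0.689 (0.202 to 2.17).

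The small changes with 5-ASA passed with DESeq2 and with RLE scaling too, but not all of them passed on TPM, where the test, the division by length and the scaling all differ. TPM divides by a sum that 1 gene, the acute-phase gene Saa3, filled to 12.7 to 13.3% in Ad-OSCAR and 14.3 to 15.2% with 5-ASA. By limma on log2(TPM + 0.1), the median gene moved by −0.093 on the log2 scale relative to the edgeR fit. Ptch1 alone then passed among the members, and Smo was 0.15 higher (adjusted p = 0.0957) and Gli2 0.35 higher (adjusted p = 0.149). Over all genes, edgeR called 1598 higher and 1134 lower with 5-ASA, and limma on TPM called 560 higher and 1439 lower. Leaving out single cultures also ended calls. Without Ad-OSCAR replicate 3, or without Ad-OSCAR + 5-ASA replicate 1, Smo alone remained. Ptch1 was also lost without Ad-OSCAR replicate 1 (adjusted p = 0.079) or Ad-OSCAR + 5-ASA replicate 2 (0.082), and Gli2 without Ad-OSCAR replicate 2 (0.0714) or Ad-OSCAR + 5-ASA replicate 3 (0.0523).

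Against Control, the 5-ASA cultures still differed in 6 of the 7 members tested, where 63.2% of all genes passed. This comparison shares its Control cultures with the first and its 5-ASA cultures with the second, so it is no independent evidence. The log2 fold changes were 4.01 ± 0.47 (SE) for Pthlh, −2.12 ± 0.12 for Pth1r, 1.68 ± 0.44 for Hhip, −0.71 ± 0.05 for Smo, −0.36 ± 0.10 for Gli2 and 0.37 ± 0.05 for Ptch1. On log2(TPM + 0.1) by limma, Hhip (0.34, adjusted p = 0.321) and Gli2 (−0.22, adjusted p = 0.234) did not pass. In the edgeR fit Gli3 was 0.11 ± 0.05 higher and did not pass (adjusted p = 0.0689), although no 5-ASA culture overlapped a Control culture. It passed without Ad-OSCAR + 5-ASA replicate 2 (adjusted p = 0.0453), with at least 10 counts in every sample (0.0384) and with only the 2 groups compared (0.0492).

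Levels of different genes were compared in TPM, which is per transcript length. In Control the order was Smo at 97.6 ± 4.38 TPM (SD, n = 3), Ptch1 at 38.0 ± 1.37, Gli3 at 18.8 ± 0.386, Pth1r at 11.7 ± 0.863 and Gli2 at 3.56 ± 0.407. Each of these 5 was above the next in every Control culture. Pthlh, Gli1, Ihh and Hhip followed at means of 0.11, 0.0967, 0.0767 and 0.0633 TPM, and their ranges overlapped from each to the next. The cultures thus held abundant transcripts of the receiving parts of both pathways and next to none of either ligand.

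In Ad-OSCAR the order changed at the top and in the middle. Ptch1, at 56.2 ± 2.02 TPM, was above Smo, at 51.2 ± 0.905, in every culture. Pth1r, Gli2 and Pthlh came close together at 2.51 ± 0.387, 2.36 ± 0.187 and 2.16 ± 0.323 TPM, with overlapping ranges. So transcript for the ligand PTHrP reached the level of transcript for its receptor, where the receptor had been far above it in Control. With 5-ASA, Smo was again first at 56.7 ± 3.08 TPM and Ptch1 second at 46.4 ± 3.18, without overlap, and Pth1r at 2.55 ± 0.405 TPM was above Pthlh at 1.58 ± 0.286 in every culture. CPM per kilobase with TMM scaling gave the same order in all 27 pairs of a gene and a group. It divides the same counts by the same lengths, so within a culture the order could not differ. The agreement is therefore no check of the order.

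**Figure D4:**
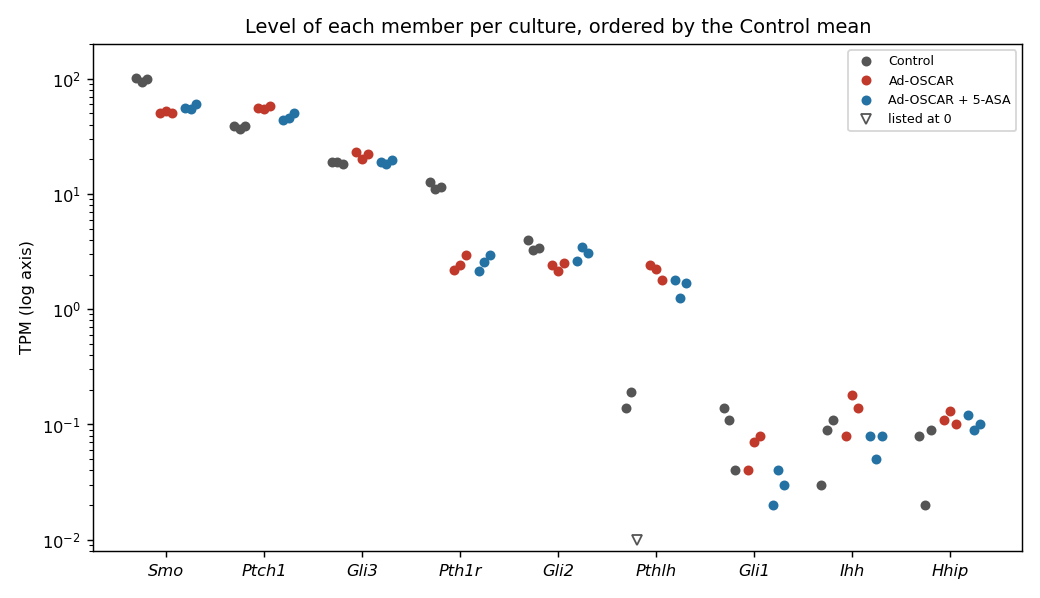
TPM of the 9 genes (log axis) in each culture, ordered by the Control mean; the open triangle is a Control culture in which Pthlh is listed at 0. Smo, Ptch1 and Gli3 are the most abundant in every group, and Pthlh moves from under 0.2 TPM in Control to between 1.25 and 2.43 TPM in the other 6 cultures.

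Further genes of the Hedgehog pathway were counted from a list of 42, which leaves out the 9 members. Of the 35 that could be tested, 8 rose, 14 fell and 13 did not pass between Ad-OSCAR and Control, where 65.0% of all genes passed. The median log2 fold change was −0.1, beside 0.02 for all genes tested. Sorted by function, the co-receptor genes had the lowest median log2 fold change, −1.01 with Lrp2 included, beside −0.7 for ligand release or processing. The functions were not compared by a test. All 4 co-receptor genes tested fell, Lrp2 with a limit given below, and they help a cell bind Hedgehog ligand. Gas1 went from 459 ± 45.1 to 189 ± 12.6 CPM (SD, n = 3; log2 fold change −1.28 ± 0.06), Cdon from 332 ± 1.74 to 200 ± 5.49 CPM (−0.73 ± 0.04) and Boc from 115 ± 4.26 to 72.5 ± 3.97 CPM (−0.67 ± 0.05). Lrp2, a large endocytic receptor, went from 13 to 18 counts to 1 to 3 counts (adjusted p = 1.57e-05), and only its Control cultures carried it past the filter, so it could be tested only because it differed.

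Of the 5 tested genes for release or processing of the ligand, 3 fell. Disp1, which exports lipid-bearing Hedgehog from the producing cell, went from 53.3 ± 3.76 to 26.3 ± 1.02 CPM (log2 fold change −1.02 ± 0.06). Hhat, the palmitoyl transferase of Hedgehog ligands, and Scube1 also fell. Disp2, at 9 to 10 counts in Control and 3 to 10 in Ad-OSCAR (adjusted p = 0.0669), and Scube3 did not pass. Among 7 genes that act with SMO at the cilium, 1 rose, 3 fell and 3 did not pass.

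Of the 11 tested genes that act on GLI proteins, 4 rose, 1 fell and 6 did not pass, and their median log2 fold change was 0.09, beside 0.02 for all genes. Sufu, the main cytoplasmic brake on GLI, was 36.4 ± 0.387 CPM in Control and 36.5 ± 1.14 in Ad-OSCAR (log2 difference 0.0, SE 0.05, adjusted p = 0.951). Subunits of protein kinase A, the kinase that promotes processing of GLI3 into its repressor, moved both ways. Prkar1a rose by 0.47 ± 0.04 and Prkacb by 0.43 ± 0.05 on the log2 scale, and Prkaca, a catalytic subunit, was the gene that fell, by 0.15 ± 0.05 (adjusted p = 0.0176).

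Transcription targets named for Hedgehog in other tissues did not share a direction. Of 7 tested, 2 rose, 3 fell and 2 did not pass. Foxf1, a mesenchymal forkhead factor, rose from 6.31 ± 0.807 to 19.2 ± 1.72 CPM (log2 fold change 1.61 ± 0.10, adjusted p = 8.56e-11), and Bcl2, an inhibitor of apoptosis, rose by 0.82 ± 0.08. Ccnd1 and Ccnd2, the D-type cyclins, fell by 1.58 ± 0.06 and 0.70 ± 0.04. Nkx3-2, a chondrogenic homeobox gene, fell by 1.19 ± 0.14. Foxf2 and Osr1 did not pass.

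With 5-ASA, 14 of the 35 tested Hedgehog pathway genes rose and 0 fell relative to Ad-OSCAR, where 10.4% of all genes rose and 7.38% fell. Lrp2, one of the 14, had 1 to 3 counts in Ad-OSCAR and 4 to 9 with 5-ASA. It was tested only through the Control cultures. The median log2 fold change of the 35 was 0.11, beside 0 for all genes. At an unadjusted p under 0.05, edgeR gave 17 higher and 0 lower. DESeq2 called 12 higher and 0 lower after adjustment, and limma on log2(TPM + 0.1) called 2 higher and 1 lower. Without Ad-OSCAR replicate 3 the count was 9, all higher. The largest rises past 1 CPM were in Scube1 (log2 fold change 0.75 ± 0.19, adjusted p = 0.00918), Osr1 (0.50 ± 0.06), Bcl2 (0.39 ± 0.07) and Boc (0.34 ± 0.05). Cdon rose by 0.27 ± 0.04, whereas Gas1 stood at 189 ± 12.6 CPM in Ad-OSCAR and 184 ± 1.69 with 5-ASA (adjusted p = 0.765). Bcl2 had already risen in Ad-OSCAR and was highest with 5-ASA, at 20.5 ± 0.774 CPM, so this gene moved away from its Control level.

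The list for PTHrP signalling held 38 genes, 3 of which, Arrb1, Arrb2 and Grk2, are also on the Hedgehog list. Of the 35 tested, 21 rose, 9 fell and 5 did not pass between Ad-OSCAR and Control, with a median log2 fold change of 0.26. Over all genes tested, 32.7% rose and 32.2% fell, with a median of 0.02. No other ligand or receptor was present in amount. Pth2 was at 0 in every library, Pth had at most 1 count and Pth2r at most 3. Of the 7 genes for the coupled G proteins and adenylyl cyclases, 3 rose and 3 fell. Gnas, which encodes the stimulatory G protein of PTH1R, fell from 1274 ± 63.5 to 947 ± 42.4 CPM (log2 fold change −0.43 ± 0.05), and Adcy9 fell by 0.93 ± 0.10.

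Early targets of cyclic AMP moved most. Of 10, 9 rose and 1 fell in Ad-OSCAR, where 32.7% of all genes tested rose and 32.2% fell. The median log2 fold change of the 10 was 1.86, beside 0.02 for all genes. Nr4a1, Nr4a2 and Nr4a3, the orphan nuclear receptors of the immediate early response, rose by 2.32 ± 0.09, 2.75 ± 0.06 and 2.61 ± 0.15 on the log2 scale. Rgs2, which limits G protein signalling, went from 11.4 ± 1.51 to 52.2 ± 0.551 CPM, and Pde4b, a phosphodiesterase that breaks down cyclic AMP, from 44.6 ± 0.786 to 130 ± 4.55 CPM. Areg, an EGF receptor ligand, had 0 counts in Control and 16 to 22 in Ad-OSCAR, at least 15.3-fold higher when Control is set at 3 counts over the group. Areg is one of the 9 and was tested only through the Oscar-carrying cultures. Fos was the exception and fell by 0.61 ± 0.12. With 5-ASA 0 of the 10 passed by edgeR, DESeq2 or limma on TPM relative to Ad-OSCAR, and at an unadjusted p under 0.05 edgeR gave 2, Nr4a2 and Crem, both lower, DESeq2 0 and limma on log2(TPM + 0.1) 4, all lower.

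Of 13 kinases, deacetylases and factors further along the route, 7 rose and 3 fell in Ad-OSCAR. The salt-inducible kinase genes Sik1, Sik2 and Sik3, which PTHrP signalling inhibits, rose by 0.54 ± 0.07, 0.38 ± 0.07 and 0.26 ± 0.06. Hdac4, which encodes the deacetylase that restrains hypertrophy, rose by 0.21 ± 0.06, and Mef2c, which encodes the factor that HDAC4 restrains, fell by 1.15 ± 0.10. Zfp521, a factor induced by PTHrP in growth plate chondrocytes, fell from 115 ± 5.34 to 68.0 ± 0.446 CPM and was 83.1 ± 2.79 CPM with 5-ASA. With 5-ASA relative to Ad-OSCAR, 3 genes of the list rose, Zfp521, Arrb1 and Sik1, and Crtc2 fell. Ramp2, a receptor partner, had 14 to 19 counts in Control and 0 to 7 in Ad-OSCAR (adjusted p = 0.000291), and it too was tested only through the Control cultures.

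**Figure D5:**
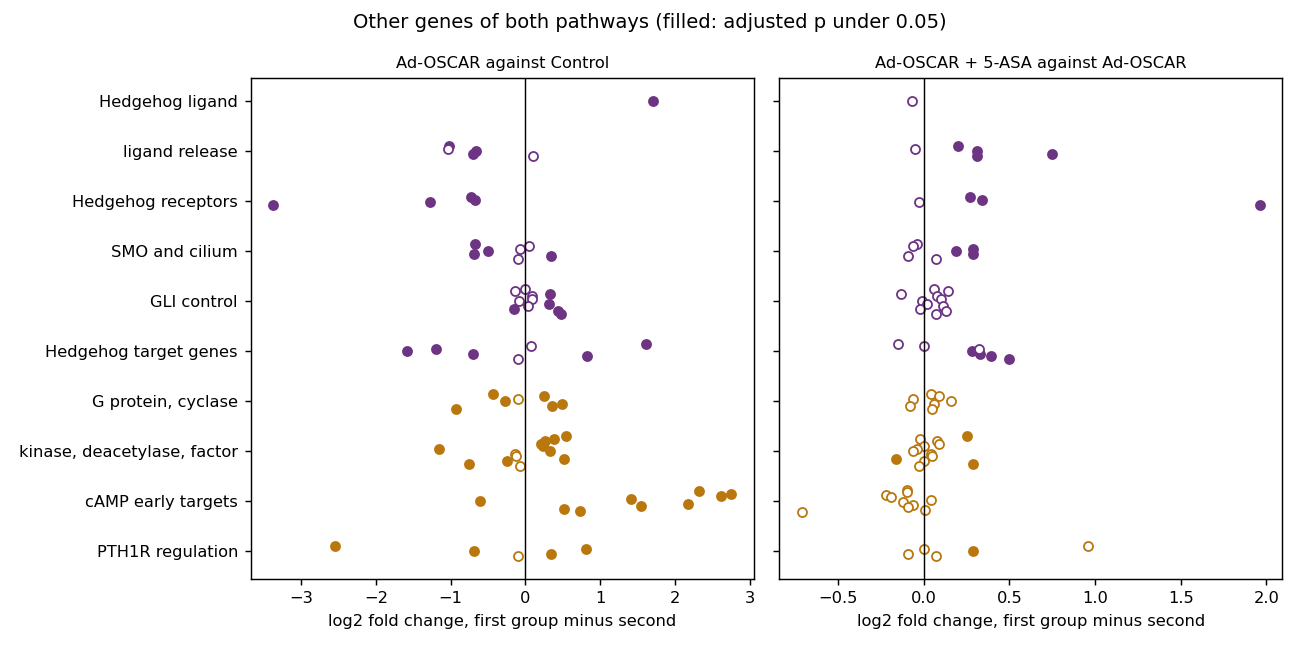
Log2 fold change (horizontal axes, edgeR, first group minus second, scales differ) of the tested genes on both pathway lists, 1 point a gene, by role. Filled points pass an adjusted p of 0.05; Areg, with 0 counts in Control, is left out of the left panel. The cyclic AMP early targets lie mostly right of 0 on the left, and all filled Hedgehog points lie right of 0 on the right.

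Genes that mark the zones between which the loop runs were counted beside the members. Hypertrophic markers did not move as a block, since 4 rose and 8 fell of 12 in Ad-OSCAR. Spp1 and Mmp13, which encode osteopontin and a collagenase, rose by 1.97 and 1.21 on the log2 scale, whereas Col10a1, the defining collagen of hypertrophy, was 30.0 CPM in Control and 25.4 CPM in Ad-OSCAR (log2 fold change −0.24, adjusted p = 0.00508). Ibsp, Dlx5, Alpl and Panx3 fell by 2.74, 2.09, 2.04 and 1.08. Of 6 superficial or periarticular markers 3 rose, Prg4 (lubricin), Gdf5 and Creb5, and 3 fell, Clu, Abi3bp and Erg. Intraflagellar transport genes, which build the cilium that Hedgehog signalling needs, were also counted. Of 24, 4 rose, 3 fell and 17 did not pass, where 65.0% of all genes passed, and their median log2 fold change was 0.02, as for all genes. Among them Ift20 and Ift88 fell by 0.76 and 0.39 while Wdr35 rose by 0.74.

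For each tested member the most similar genes were found by the root mean square difference of centred log2 CPM over the 9 cultures, among genes of at least 1 CPM on average. The nearest to Ptch1 was Chd2 (0.0337 log2 units), to Smo Rack1 (0.035) and to Gli3 Dnajc16 (0.0209). Gli2 was nearest to Etv5 (0.0991), Pth1r to Zfp385b (0.111) and Hhip to 6330403K07Rik (0.143). Pthlh was nearest to the chemokine gene Cxcl10 (0.185), then to Fgf9 (0.322) and Tshr (0.327). No member was among the 3 nearest of another, and with 3 groups most of the likeness is the step between groups.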

How the data were processed

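Truseq stranded mRNA libraries were sequenced from 9 cultures, 3 per group. Per the labels and the study's methods, the authors trimmed reads with BBDuk, aligned them to GRCm38 with STAR 2.7.1a and deposited RSEM 1.3.1 gene tables. The expected counts deposited by the authors are unnormalised estimates, and the deposited TPM values are relative to effective length. A supplement of the study names another RSEM version and annotation release for TPM, and which made the deposited TPM was not settled. Whether counting used strand is not given in the sources used here. Identifiers were matched to GENCODE M21 symbols. Expected counts were rounded, scaled by TMM and filtered by filterByExpr, and 15362 genes were fitted together with edgeR 4.0.16 (glmQLFit, 3 groups, no covariate; biological variation 5.11%). P-values were Benjamini-Hochberg adjusted over all genes tested, with a threshold of 0.05. Intervals of pooled count ratios are exact and 95%. The code was tested on simulated data. Alternatives used DESeq2 1.42.0, limma 3.58.1, other filters, a replicate block and leaving out each culture. Same-numbered cultures did not deviate together (correlations −0.0724 to 0.0402). From each list, up to 4 genes per direction and comparison with the largest change and at least 1 CPM are named, plus ligands and receptors. Genes named beyond this rule (Sufu, the Sik genes, Hdac4, Gnas, Areg, Fos and others without the largest change) were chosen after their values were seen. Members and lists were chosen with earlier results of these data known.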

Additional observations from a re-analysis of the deposited data

How the results depend on the processing

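The members' results were recomputed with DESeq2, RLE scaling, no filter, at least 10 counts in every sample, the 2 compared groups alone, a replicate block, TPM with either pseudocount and each culture left out. Of 350 recomputed member fold changes 329 kept direction and side of the threshold, 18 lost the call, 3 gained it and 0 reversed; Pthlh, Ad-OSCAR against Control, ranged from 1.51 to 5.0. For 5-ASA against Ad-OSCAR, members past the test went from 3 to 1 by limma on log2(TPM + 0.1) or log2(TPM + 1) and ranged from 1 to 3 without single cultures. Members past the OSCAR criterion went from 3 to 1 with at least 10 counts in every sample, where Pthlh and Hhip were not tested. Hedgehog list genes past the test with 5-ASA went from 14 to 3 with either TPM pseudocount, and from 9 to 14 without single cultures. PTHrP list genes went from 4 to 1 at a pseudocount of 0.1, to 2 at a pseudocount of 1, and from 1 to 4 without single cultures. Fewer calls on TPM go with a length re-estimated per culture and the growing share of Saa3; their part was not tested. The replicate block left the members past the test at 7, 3 and 6 and changed no call of a member; it is given although the numbers did not pair the cultures. Depth limits Ihh and Gli1, which passed in no alternative that tested them.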
